A study of Homo sapiens with 9 samples.

Results

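The genes described here are the EGF family ligands HBEGF, AREG, EREG, TGFA, BTC and NRG1 and the ERBB receptors EGFR, ERBB2 and ERBB3, in PANC-1 cells exposed to TVB-3166. Members were every probe set annotated to exactly 1 gene that is on this list of 9, under its current symbol or an older alias. This gave 34 of the 54613 non-control probe sets and 8 of 19775 genes, since no probe set was annotated to AREG alone, and AREG was not analysed here. A probe set was tested where its mean level lay above the 40th percentile of all probe sets, a signal of about 39.0. That left 24 member probe sets and 7 member genes, out of 32768 probe sets and 13948 genes tested.

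PANC-1 is an established human pancreatic adenocarcinoma line. The series title names TVB-3166 as an inhibitor of fatty acid synthase. All 3 groups were collected after 72 h in a medium whose serum was charcoal-filtered: vehicle (DMSO alone), TVB-3166 at 0.1 µM and TVB-3166 at 1.0 µM, with 3 Affymetrix HG-U133 Plus 2.0 arrays each. Groups follow the sample titles. Other labels conflict with them: the 1.0 µM samples also carry a treatment entry of 0.1 µM, 0.1 µM replicate 1 is described as DMSO, and the vehicle is given as 0.05% and as 0.5%. The labels do not say that replicates were separate cultures, so the p-values measure only the spread between these samples, which may be technical.

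EGF family ligands are made as membrane-anchored precursors and are released by proteases such as ADAM17. They bind ERBB receptor tyrosine kinases, which act as dimers and signal through the ERK cascade and through phosphoinositide 3-kinase. HBEGF, EREG and BTC bind EGFR and ERBB4, TGFA and AREG bind EGFR, and NRG1 binds ERBB3 and ERBB4. ERBB2 has no known soluble ligand and acts as a dimer partner. EGFR is widely expressed in pancreatic ductal cancer.

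The promoter sequences of the called members that move together or in the opposite direction show what lies at the start sites matched for them. RefSeq promoter windows (assembly GRCh38.p14, 250 bases before to 50 bases after the start, 300 bases) were matched for 7 members: HBEGF, AREG, EREG, TGFA, BTC, EGFR and ERBB2, in 9 windows. Both strands were searched for the AP-1 motif TGACTCA, the CRE motif TGACGTCA, the ATF4 composite element TGATGNAA, the NF-kB motif (GGG, any 5 bases, CC) and the sterol element TCACNCCAC. The NF-kB matches can overlap each other. Capitals mark a match in either orientation. The windows are HBEGF at chr5:140346554-140346853 on the minus strand, EREG at chr4:74364895-74365194 on the plus strand, EGFR at chr7:55018767-55019066 and at a second start, chr7:55109589-55109888, both on the plus strand, and ERBB2 at chr17:39687844-39688143 on the plus strand.
HBEGF: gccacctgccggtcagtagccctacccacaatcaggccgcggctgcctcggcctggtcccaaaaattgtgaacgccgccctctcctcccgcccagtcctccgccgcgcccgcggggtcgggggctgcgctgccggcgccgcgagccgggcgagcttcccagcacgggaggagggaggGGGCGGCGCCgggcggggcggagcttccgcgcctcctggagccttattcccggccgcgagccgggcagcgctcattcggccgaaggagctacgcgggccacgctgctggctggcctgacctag
EREG: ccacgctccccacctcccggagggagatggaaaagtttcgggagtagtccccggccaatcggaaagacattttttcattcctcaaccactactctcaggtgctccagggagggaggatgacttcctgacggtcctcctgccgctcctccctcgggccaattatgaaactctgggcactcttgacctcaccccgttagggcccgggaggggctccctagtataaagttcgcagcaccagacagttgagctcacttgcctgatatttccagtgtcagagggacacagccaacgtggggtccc
EGFR: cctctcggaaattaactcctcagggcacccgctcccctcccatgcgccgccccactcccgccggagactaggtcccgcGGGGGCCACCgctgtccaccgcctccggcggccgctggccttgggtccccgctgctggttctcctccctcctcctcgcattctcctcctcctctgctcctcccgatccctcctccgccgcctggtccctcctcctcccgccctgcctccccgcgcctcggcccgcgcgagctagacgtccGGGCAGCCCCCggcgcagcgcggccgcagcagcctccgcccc
EGFR second start: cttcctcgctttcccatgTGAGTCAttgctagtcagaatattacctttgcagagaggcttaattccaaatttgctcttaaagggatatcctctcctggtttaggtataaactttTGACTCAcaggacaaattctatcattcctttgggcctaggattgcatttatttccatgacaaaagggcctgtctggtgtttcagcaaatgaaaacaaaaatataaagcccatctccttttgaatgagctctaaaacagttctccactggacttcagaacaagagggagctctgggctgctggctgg
ERBB2: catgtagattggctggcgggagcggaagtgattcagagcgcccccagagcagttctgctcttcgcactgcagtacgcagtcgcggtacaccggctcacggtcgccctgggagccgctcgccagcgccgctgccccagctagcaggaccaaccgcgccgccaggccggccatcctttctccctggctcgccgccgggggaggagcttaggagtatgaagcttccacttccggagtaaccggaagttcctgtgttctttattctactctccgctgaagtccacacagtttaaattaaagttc
The HBEGF window held 1 NF-kB match and the upstream EGFR window held 3, in a motif found in 58.7% of all 35116 promoter windows. The second EGFR window held 2 AP-1 matches, and 4.95% of all windows hold at least 1. The EREG and ERBB2 windows held none of the 5 motifs. Other starts of a gene may lie outside its window, and whether a window holds the main start was not checked. Among the members whose windows are not printed, AREG held 1 CRE match, a motif in 1.85% of windows. NF-kB matches in these unprinted windows numbered 3 for AREG, 5 for BTC, and 1 and 6 for the TGFA windows. No member window held the ATF4 composite element (3.62% of all windows) or the sterol element (1.13%). A match describes letters only, and a window without one says nothing about the factor.

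The ligands HBEGF, NRG1 and EREG had the largest differences of the 7 tested members. At 1.0 µM against DMSO, 4 of the 7 tested member genes rose (HBEGF, NRG1, EREG and EGFR), 1 fell (ERBB2), and TGFA and ERBB3 were not called (limma, Benjamini-Hochberg adjusted p under 0.05 over all 13948 genes). Across all tested genes 12.3% rose and 11.0% fell. At 0.1 µM the 3 ligands HBEGF, NRG1 and EREG rose and no member fell (with ERBB2 at an unadjusted p of 0.0105), where 6.89% of all genes rose and 5.11% fell. The median log2 difference of the 7 members was 0.53 at 1.0 µM and 0.24 at 0.1 µM, beside 0.01 and -0.01 over all tested genes. The members were chosen with earlier results of these data known, so these counts and medians are not independent evidence. All values here are differences in log2(signal + 16), which understate the change of dim genes. Signals of different probe sets are not comparable as levels. Where groups are said not to overlap, the share of all probe sets that separate in this way was not counted. In RNA from whole cultures, fewer cells with a transcript and less transcript per cell cannot be told apart.

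**Figure D1:**
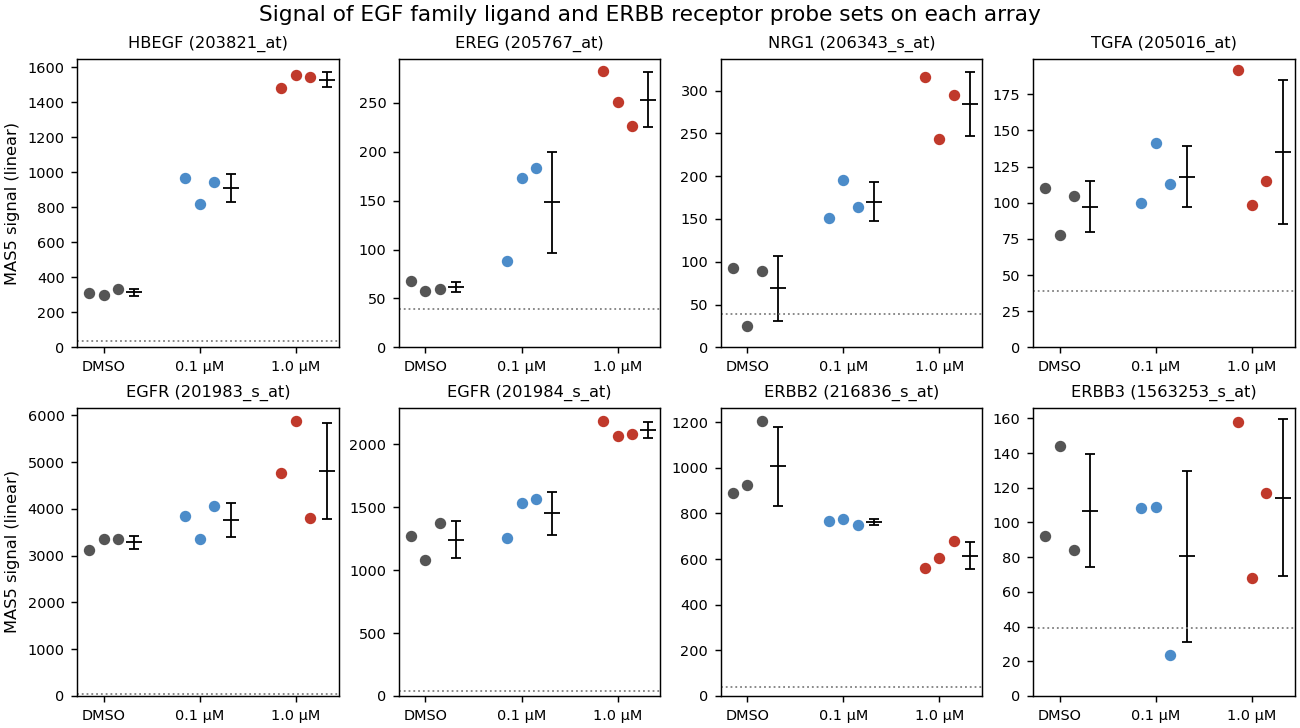
Deposited MAS5 signal (linear axis from 0) on each of the 9 arrays for 8 probe sets of the 7 tested member genes, by dose; points are arrays, the black bar is the mean with its SD (n = 3), and the dotted line is the filter level of 39.0. The 3 doses do not overlap for HBEGF, EREG, NRG1 and ERBB2, while TGFA and ERBB3 overlap throughout. How many of all probe sets separate in this way was not counted.

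HBEGF, heparin-binding EGF-like growth factor, had the largest change of the 7 tested members. Its probe set 203821_at read 309.6, 298.4 and 334.5 on the DMSO arrays, 967.1, 816.4 and 944.9 at 0.1 µM, and 1480.7, 1557.5 and 1546.4 at 1.0 µM. Every 0.1 µM array was above every DMSO array and below every 1.0 µM array. The rise was 1.48 ± 0.10 (SE, n = 3 per group) at 0.1 µM (limma adjusted p = 3.22e-06) and 2.23 ± 0.10 at 1.0 µM (adjusted p = 6.41e-08), or 4.68-fold on the offset scale. HBEGF was the only member called between the doses, higher at 1.0 than at 0.1 µM by 0.74 ± 0.10 (adjusted p = 0.0078), in a comparison that called 0.817% of all genes in either direction. That call was lost without 1.0 µM replicate 3 (0.73, adjusted p = 0.0551), and also with the mean of the gene's probe sets (0.62, adjusted p = 0.0992).

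A second HBEGF probe set, 38037_at, had the same order of doses. It read 147.2, 189.2 and 139.9 with DMSO, 278.2, 369.1 and 386 at 0.1 µM, and 576.1, 630.1 and 521.7 at 1.0 µM. The 3 groups did not overlap. It rose by 1.04 ± 0.16 at 0.1 µM and by 1.77 ± 0.16 at 1.0 µM (limma adjusted p = 0.00166 and adjusted p = 1.64e-05, over 32768 probe sets). The dim probe set 244857_at spanned 9.3 to 81.7 with DMSO and 60.3 to 67 at 1.0 µM, groups that overlap (0.53, adjusted p = 0.484), and 222076_at stayed below the filter at 2.2 to 5.3.

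The next ligands were EREG (epiregulin) and NRG1 (neuregulin 1). EREG probe set 205767_at read 67.9, 58 and 59.5 with DMSO, 88.5, 172.8 and 183.4 at 0.1 µM, and 282.6, 251.3 and 226.1 at 1.0 µM. The doses did not overlap, and 0.1 µM replicate 1 lay well below the other two arrays of its group. EREG rose by 1.79 ± 0.24 at 1.0 µM (limma adjusted p = 0.000221) and by 1.02 ± 0.24 at 0.1 µM (adjusted p = 0.0168). The 0.1 µM call was lost without 0.1 µM replicate 2 (0.89, adjusted p = 0.0577) or replicate 3 (0.85, adjusted p = 0.0899). Its other probe set was below the filter, at 4.5 to 42.8.

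NRG1 probe set 206343_s_at read 92.4, 25.1 and 89.1 with DMSO, 151.3, 196 and 163.6 at 0.1 µM, and 316.1, 243.4 and 294.4 at 1.0 µM. DMSO replicate 2 was the lowest array, below the filter level, and again no group overlapped another. The rise was 1.95 ± 0.32 at 1.0 µM (limma adjusted p = 0.000916) and 1.26 ± 0.32 at 0.1 µM (adjusted p = 0.0234). Leaving out any of the 3 arrays at 0.1 µM ended that lower-dose call, with adjusted p from 0.0505 to 0.0765. Without DMSO replicate 2 the gene was still called at both doses, but the 0.1 µM difference was 0.80. With the mean of its probe sets the differences were 1.12 at 1.0 µM and 0.69 at 0.1 µM.

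The other NRG1 probe sets, which can read other transcripts of the gene, gave smaller differences. Probe set 206237_s_at read 63.1, 65.3 and 63.7 with DMSO, 114, 89.9 and 112.3 at 0.1 µM, and 191.1, 155 and 112.3 at 1.0 µM. Both doses lay above DMSO and overlapped each other, and the probe set rose at 1.0 µM (1.05 ± 0.21, limma adjusted p = 0.00507) but was not called at 0.1 µM (0.60, adjusted p = 0.121). Probe sets 208230_s_at (0.97, adjusted p = 0.0902) and 208241_at (0.51, adjusted p = 0.248) were not called at 1.0 µM, and 2 more were below the filter.

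TGFA and BTC gave no call. TGFA, transforming growth factor alpha, read 110.1, 77.5 and 104.5 with DMSO, 100.1, 141.6 and 112.7 at 0.1 µM and 191.7, 98.5 and 115.2 at 1.0 µM on 205016_at. All groups overlapped, and the 1.0 µM difference of 0.38 had a 95% interval of -0.17 to 0.92 (limma adjusted p = 0.325). On 211258_s_at the difference had the opposite sign (-0.48, adjusted p = 0.462). The 2 probe sets of BTC (betacellulin) were below the filter, with signals from 0.8 to 21 and a median of 8.45. BTC 241412_at was at 19.8 to 20.5 at 1.0 µM and 0.8 to 19.1 with DMSO, too dim here to test.

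Among the receptors, EGFR rose and ERBB2 fell at 1.0 µM. EGFR had 9 probe sets, 7 of them tested. The brightest, 201983_s_at, read 3125.6, 3352.7 and 3360.9 with DMSO, 3843, 3363.8 and 4069.7 at 0.1 µM, and 4755.8, 5870.1 and 3807.1 at 1.0 µM. The 1.0 µM arrays were all above DMSO but overlapped the 0.1 µM arrays. EGFR rose by 0.53 ± 0.14 at 1.0 µM (limma adjusted p = 0.0161) and was not called at 0.1 µM (0.19 ± 0.14, adjusted p = 0.44). Without DMSO replicate 1 the 1.0 µM call was lost (0.49, adjusted p = 0.0553).

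The tightest EGFR probe set was 201984_s_at, at 1268.3, 1084.5 and 1372.9 with DMSO, 1256.1, 1536.8 and 1566 at 0.1 µM, and 2185, 2067.2 and 2084.4 at 1.0 µM. Its 1.0 µM arrays stood clear of both other groups, which overlapped each other. It rose by 0.76 ± 0.12 (limma adjusted p = 0.000682), a call that held in all 22 alternatives run for it. The rises of 224999_at (0.52, adjusted p = 0.0421) and 210984_x_at (0.66, adjusted p = 0.0414) lay near the threshold and were lost in 10 and 13 of 22 alternatives, among them the fits without DMSO replicate 1 (adjusted p = 0.131 and 0.142). Probe set 201983_s_at, adjusted over all probe sets, was lost in 8 of 22. The 3 dimmest EGFR probe sets tested were not called, with 211607_x_at at 0.36, 211551_at at -0.25 and 1565484_x_at at -0.44.

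ERBB2 was the member that fell. Probe set 216836_s_at read 890.8, 922.4 and 1204.8 with DMSO, 766.9, 774.4 and 747.6 at 0.1 µM, and 562.2, 606 and 677.3 at 1.0 µM. The groups did not overlap, and DMSO replicate 3 was the highest array. The fall was -0.69 ± 0.13 at 1.0 µM (limma adjusted p = 0.00185), while at 0.1 µM the difference of -0.38 ± 0.13 was not called (adjusted p = 0.0733). Without DMSO replicate 3 the 1.0 µM difference was -0.55 and still called, and the 0.1 µM difference was -0.24. The 2 dim ERBB2 probe sets were also lower but not called at 1.0 µM (234354_x_at -0.76, adjusted p = 0.128, and 210930_s_at -0.43, adjusted p = 0.476).

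ERBB3, the receptor with a weak kinase that pairs with ERBB2, was dim on all its probe sets. On 1563253_s_at it read 92, 144.3 and 84.1 with DMSO, 108.6, 109.2 and 23.7 at 0.1 µM, and 157.9, 67.8 and 117.2 at 1.0 µM. All groups overlapped, and the 1.0 µM difference was 0.05 with a 95% interval of -0.88 to 0.98 (limma adjusted p = 0.951). The other 3 tested ERBB3 probe sets gave 0.38 (202454_s_at), 0.20 and -0.25, with none called. On 202454_s_at the 1.0 µM arrays (56.7 to 64.8) lay above the DMSO arrays (31.8 to 50.5), and on the others these groups overlapped.

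**Figure D2:**
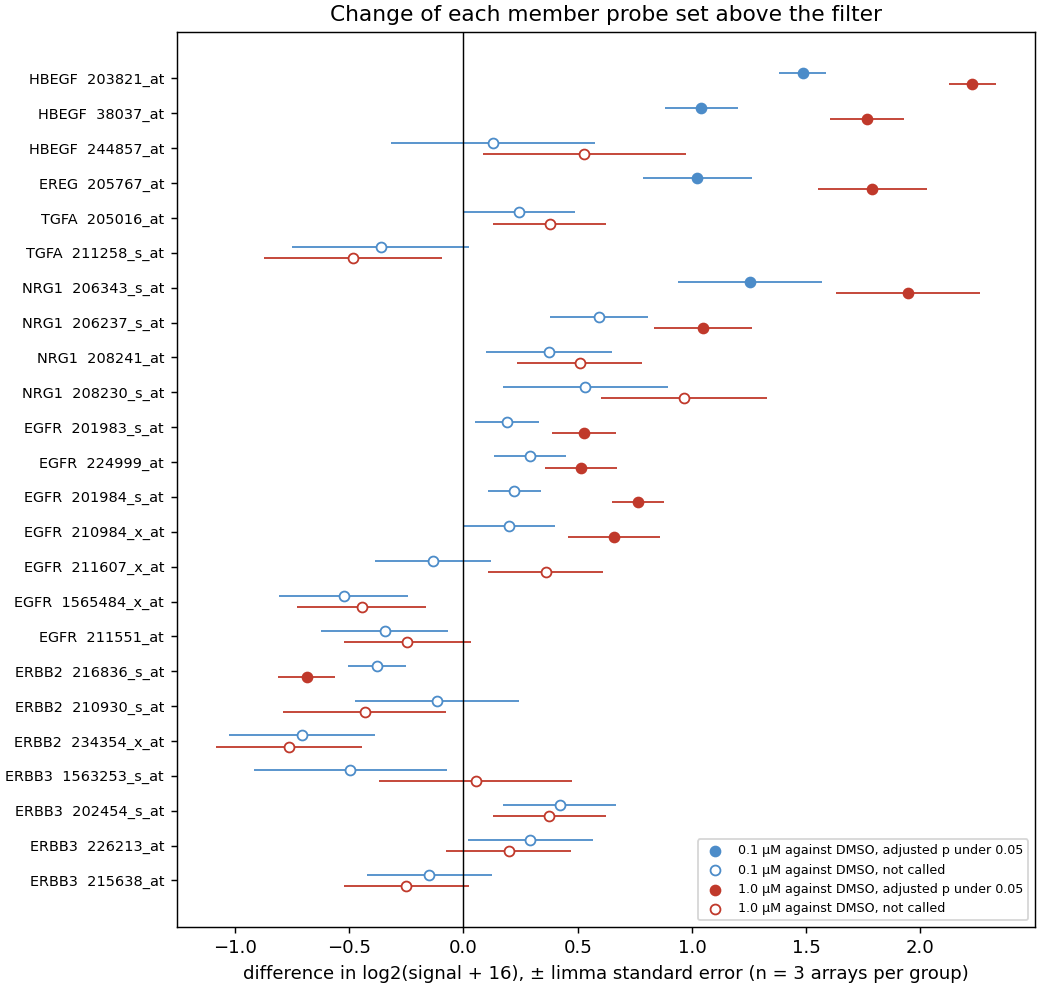
Difference in log2(signal + 16) from DMSO at 0.1 µM (blue) and 1.0 µM (red) for the 24 member probe sets above the filter, with limma standard errors (n = 3 arrays per group); filled points have an adjusted p under 0.05. At 1.0 µM 9 probe sets rose and 1 fell, and at 0.1 µM 4 rose.

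Counted over probe sets, 9 of 24 rose at 1.0 µM (2 of HBEGF, 1 of EREG, 2 of NRG1 and 4 of EGFR) and 1 fell (ERBB2), where 8.94% of all tested probe sets rose and 8.68% fell. At 0.1 µM 4 rose (2 of HBEGF, 1 of EREG and 1 of NRG1) and none fell by limma (2 at an unadjusted p under 0.05), beside 4.59% and 3.66% over all. Between the doses 1 was called, HBEGF 203821_at (0.74, limma adjusted p = 0.0155, lost in 10 of 22 alternatives), where 0.281% of all probe sets were called. Probe sets of 1 gene share its transcript and are not replicates.

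The arrays differ in the signal of 9 hybridisation spike probe sets, which mark array processing and not the cells. They were high, with a mean log2 above 11.67, on DMSO replicate 2, on replicates 1 and 3 of 0.1 µM and on replicate 2 of 1.0 µM, and low on the remaining 5 arrays. Within these low and high sets (called the lower and higher spike set) alone, the 1.0 µM difference was 2.18 and 2.32 for HBEGF, 1.76 and 1.85 for EREG, 1.59 and 2.66 for NRG1, and -0.73 and -0.59 for ERBB2. For EGFR it was 0.39 and 0.81. The lower set holds 2 arrays each of DMSO and 1.0 µM and 1 of 0.1 µM, and there HBEGF, EREG, NRG1 and ERBB2 were called at 1.0 µM (limma adjusted p up to 0.0273) and EGFR was not (adjusted p = 0.0684). The higher set holds 1 array each of DMSO and 1.0 µM, so its values are single differences, given here with no test. At 0.1 µM the differences in the lower and higher set were 1.30 and 1.63 for HBEGF, 1.25 and 0.96 for EREG, and 0.99 and 2.08 for NRG1. Every one of these comparisons has an arm of 1 array. The difference between the sets was not tested.

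**Figure D3:**
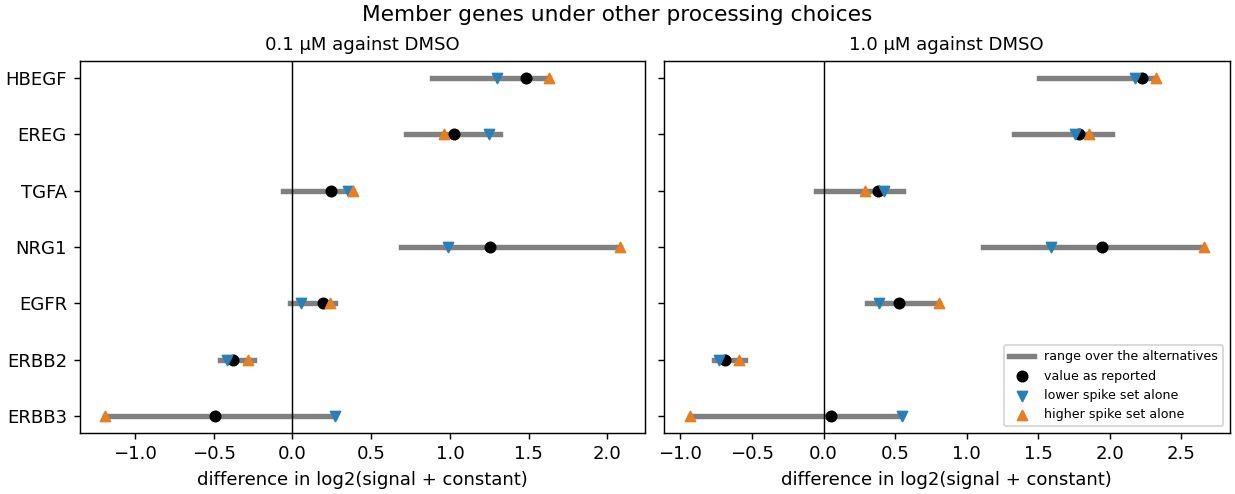
Difference in log2(signal + constant) from DMSO of the 7 tested member genes as reported (black), its range over the alternative processing choices (grey bar), and its value in the lower (blue) and higher (orange) spike set alone. The bars of HBEGF, EREG, NRG1 and ERBB2 stay clear of 0 at both doses, and those of TGFA and ERBB3 cross it.

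Genes of the wider ERBB pathway were read from lists chosen with earlier results of these data known, so their counts are not independent evidence. Of 16 ligand shedding and trafficking genes, 1 rose and 1 fell at 1.0 µM, where 12.3% of all genes rose and 11.0% fell. The median of the list was 0.01. ADAM17, the main sheddase of HBEGF, EREG and TGFA precursors, rose by 0.59 ± 0.12 (limma adjusted p = 0.00348), from a mean signal of 2018 ± 324 (SD, n = 3) with DMSO to 3022 ± 218. RHBDL2, a rhomboid protease, fell by 0.69 ± 0.19 (adjusted p = 0.0233), a call lost without DMSO replicate 1, DMSO replicate 2 or 1.0 µM replicate 2. At 0.1 µM none of the 16 was called by limma, where 6.89% of all genes rose and 5.11% fell. ADAM17 alone was at an unadjusted p under 0.05. Of the remaining ligands and ERBB4, only NRG2 was tested, with a difference of -0.37 at 1.0 µM (limma adjusted p = 0.0539), a fall that was called in 6 of 23 alternatives, among them the fit without 1.0 µM replicate 2.

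Among 15 adaptor and proximal signalling genes 1 rose and 2 fell at 1.0 µM (median 0.09), beside 12.3% and 11.0% of all genes. GAB2, a docking protein, rose by 0.79 ± 0.11 (limma adjusted p = 0.000238), PLCG1, a phospholipase, fell by 0.49 ± 0.10 (adjusted p = 0.00507), and PIK3R1, the regulatory subunit of phosphoinositide 3-kinase, fell by 0.53 ± 0.12 (adjusted p = 0.00679). At 0.1 µM PLCG1 alone was called (-0.38, limma adjusted p = 0.0329), where 6.89% of all genes rose and 5.11% fell. That call was lost in 6 of the 9 fits that leave out an array. The 1.0 µM call of GAB2 held in all 23 alternatives, and those of PLCG1 and PIK3R1 were each lost in 1, a spike set alone.

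Of 24 receptor inhibitors and endocytosis genes 5 rose and none fell by limma at 1.0 µM (median 0.13). The shares over all genes were 12.3% and 11.0%. There was 1 lower gene, AP2M1, at an unadjusted p under 0.05. GRB10, an adaptor that binds receptor tyrosine kinases, rose by 1.06 ± 0.08 (limma adjusted p = 3.28e-06). SOCS3, a suppressor of cytokine signalling, rose by 0.94 ± 0.09 (adjusted p = 2.22e-05), and RNF41, a ubiquitin ligase for ERBB3, by 0.57 ± 0.10 (adjusted p = 0.00174). These 3 calls held in all 23 alternatives. The count of rises was 3 without DMSO replicate 1, DMSO replicate 2, 1.0 µM replicate 1 or 1.0 µM replicate 3, where CBL, a ubiquitin ligase for EGFR, and UBASH3B, a phosphatase, lost their calls. ERRFI1, a direct inhibitor of EGFR, was not called (0.40, adjusted p = 0.0932). At 0.1 µM GRB10 (0.77), SOCS3 (0.62) and UBASH3B (0.47, a call lost in 5 of the 9 fits that leave out an array) rose. No gene of the list fell by limma, with 1 lower gene, LRIG1, at an unadjusted p under 0.05. Over all genes 6.89% rose and 5.11% fell at that dose.

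The list of ERK output and feedback genes had the largest share of calls. At 1.0 µM 9 of 16 rose and 1 fell (median 0.60), and at 0.1 µM 7 rose and none fell by limma, or at an unadjusted p under 0.05 (median 0.34). Across all tested genes 12.3% rose and 11.0% fell at 1.0 µM, and 6.89% rose and 5.11% fell at 0.1 µM. At 1.0 µM the rises of IER3 (0.33) and ETV4 (1.33) lost their calls in 8 and 2 of the 9 fits that leave out an array. DUSP5, a phosphatase of nuclear ERK, rose by 1.46 ± 0.13 at 1.0 µM (limma adjusted p = 1.01e-05) and by 0.67 at 0.1 µM. SPRY4, a feedback inhibitor of receptor tyrosine kinase signalling, rose by 1.18 ± 0.12 (adjusted p = 1.98e-05) and by 0.66. DUSP6, the cytoplasmic ERK phosphatase, rose by 1.41 ± 0.14 (adjusted p = 2.40e-05) and by 0.79. ETV5, an ETS factor, rose by 0.97 ± 0.14 at 0.1 µM (adjusted p = 0.00083). The gene that fell was CCND1, cyclin D1 (-0.34 ± 0.09, adjusted p = 0.013), which was named after its value was seen. That call was lost with the mean of probe sets and in either spike set alone. Without 0.1 µM replicate 3 the count of rises at 0.1 µM was 4, and in the lower spike set alone it was 0.

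**Figure D4:**
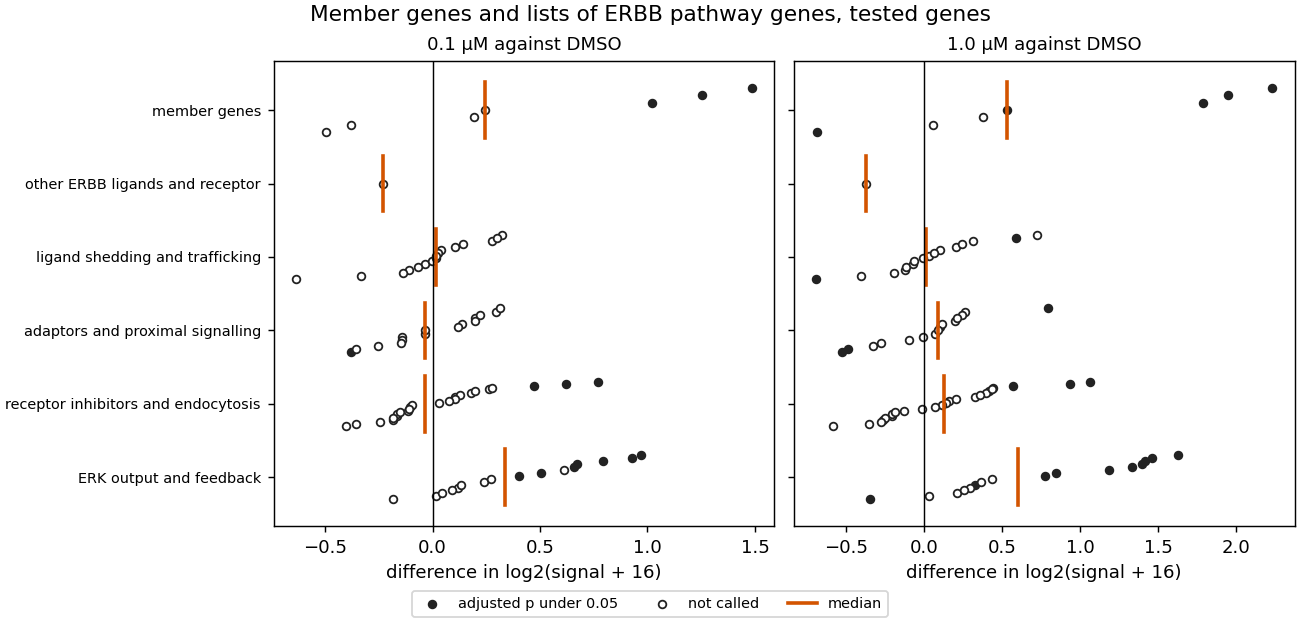
Difference in log2(signal + 16) at 0.1 µM and 1.0 µM against DMSO for the tested member genes and for each pathway list; each point is a gene, filled points have an adjusted p under 0.05, and the orange bar is the list's median. The medians of the ERK output and feedback list (0.34 and 0.60) lie to the right of those of the other pathway lists.

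The profiles most like each called member over the 9 arrays were found by Pearson r of log2 values, given as a description, since the arrays share the dose groups. For HBEGF they were MOCOS (r = 0.998), SIAH1 (0.995) and SLC7A1 (0.995), and for EREG NABP1 (0.982), SPRY2 (0.979) and RAI14 (0.976). For NRG1 they were TMEM198 (0.982), SAMD4A (0.978) and ELOVL7 (0.977). For EGFR they were RFX2 (0.968), C11orf68 (0.947) and YAF2 (0.945), and for ERBB2 SLC66A2 (0.999), PHRF1 (0.982) and PAX2 (0.98). A high r is not a call. At 1.0 µM C11orf68 was called (0.64, limma adjusted p = 0.00749). RFX2 (0.28, adjusted p = 0.283) and YAF2 (0.26, adjusted p = 0.0741) were not. SPRY2, close to EREG, is also in the ERK output and feedback list.

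Genome neighbours, the 5 protein-coding genes on each side in RefSeq order, were looked up after the values of the members were seen. EREG lies on chromosome 4 beside EPGN, AREG and BTC, none of which could be tested. Of its 5 tested neighbours 1 rose at 1.0 µM, the chemokine gene CXCL2 (1.76 ± 0.18, limma adjusted p = 2.37e-05). All neighbour counts here stand beside 12.3% of all genes that rose and 11.0% that fell at 1.0 µM. None of the 6 tested neighbours of HBEGF on chromosome 5 rose by limma (1 was higher at an unadjusted p under 0.05, CYSTM1, at 0.40 with an adjusted p of 0.097), and 2 fell, PURA (-0.37) and IGIP (-0.46), calls lost in 6 and 4 of the 9 fits that leave out an array. Beside ERBB2 on chromosome 17, PPP1R1B (-1.55 ± 0.17, adjusted p = 4.17e-05) and PNMT (-0.996, adjusted p = 0.0327) fell, and PNMT lost its call in 5 of those 9 fits. Of the 8 tested neighbours of ERBB2, TCAP (-1.06, limma adjusted p = 0.0505) and STARD3 (-0.50, adjusted p = 0.0716) were also lower, at an unadjusted p under 0.05 only. The genes next to ERBB2, MIEN1 (0.00) and PGAP3 (-0.11), were not called. Of the 5 tested neighbours of EGFR 1 rose, GRB10 (1.06), and none fell by limma. Of the 9 tested neighbours of NRG1 1 rose, PPP2CB (0.27, limma adjusted p = 0.0309), and none fell. The PPP2CB call was lost in 6 of the 9 fits that leave out an array. Neighbours of the members without a call are not described here.

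The arrays carried the markers of the labelled cell type. Of 10 ductal epithelial markers 8 were above the filter, with the keratin genes KRT8, KRT18 and KRT19 at mean signals from 19993 to 21984 with DMSO, while CFTR was below it. Their summed signal was 58394 to 79400 with DMSO, 52261 to 71467 at 0.1 µM and 42279 to 58027 at 1.0 µM. KRT8 (-0.86, limma adjusted p = 0.00165) and KRT19 (-0.90, adjusted p = 0.00258) fell at 1.0 µM and KRT7 rose (1.06, adjusted p = 4.29e-05). Their probe sets differed, from -0.90 to -0.09 for KRT19 and from -0.02 to 1.06 for KRT7. At 0.1 µM KRT7 rose (1.11, limma adjusted p = 7.52e-05) and CDH1, the epithelial cadherin, fell (-0.59, adjusted p = 0.0145), a call lost without DMSO replicate 1, 0.1 µM replicate 1 or 0.1 µM replicate 3. Their part in the member values was not tested. The mesenchymal marker VIM was also bright, with none of 4 such genes called by limma and 1, ZEB1, at an unadjusted p under 0.05. Of the acinar and endocrine markers 1 of 9 was above the filter, and of the endothelial and fibroblast markers 2 of 6. Of the 7 genes listed as leukocyte markers 3 were above it, CD3E, CD79A and HBB, with PTPRC below it. HBB encodes beta-globin and is a red cell gene. Probe sets annotated to 1 gene covered 7 of the 9 acinar and endocrine genes and 6 of these 7. In these 3 lists none was called by limma at 1.0 µM, and 0 were at an unadjusted p under 0.05.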

How the data were processed

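RNA of 9 PANC-1 samples was hybridised to Affymetrix arrays. The deposited values are linear hybridisation intensity values, 1 per probe set, which the submitters' processing notes name as MAS5 signals, with no version given. The design text also names Partek, with no role stated. Every array has a trimmed mean of 500.1, with 2% trimmed at each end. Arrays have no read depth, and their number limits precision.

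Intensities were turned into log2(signal + 16) with no further normalization. Gene symbols of probe sets with exactly 1 gene were updated by Entrez identifier to RefSeq (41043 of 41091). A probe set entered the tests if its mean level exceeded the 40th percentile, and the brightest stood for its gene. limma 3.58.1 in R 4.3.3 (lmFit, eBayes with trend) was fitted to all 9 arrays and 3 groups, for genes and for probe sets, two-sided, with Benjamini-Hochberg adjustment over all tested features and calls at adjusted p under 0.05. The fit was tested on simulated data.

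The members and lists were chosen with earlier results of these data known. Named genes are all members, the 3 called genes with the smallest p of each list and dose, and the 3 genes with the highest r to each called member. Genes outside this rule are named where a count of 5 or fewer refers to them or where a call was lost with an array left out. Others are neighbours, markers or a known inhibitor. All were named after their values were seen.

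Same-numbered arrays of different groups had deviations that correlated at -0.34 to 0.22, above 0.1 in 1 of 9 pairs, so the numbers were not taken to pair samples. Every such pair with a 0.1 µM array joins the lower and the higher spike set, so this check cannot exclude a pairing. Arrays within a group correlated at 0.981 to 0.990 across genes. 3′ to 5′ log2 ratios of GAPDH lay between -0.22 and -0.10. Alternatives were other added constants, filters, scalings, summaries and variance models, left-out arrays, the replicate block and the spike sets. Protein sequences were not analysed here.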

Additional observations from a re-analysis of the deposited data

How the results depend on the processing

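At 1.0 µM against DMSO, HBEGF (1.51 to 2.32), EREG (1.33 to 2.02), NRG1 (1.12 to 2.66) and ERBB2 (-0.77 to -0.55, adjusted p up to 0.0487) kept direction and call in all 23 alternatives, and so did HBEGF at 0.1 µM (0.89 to 1.63). In 1 of the 23, the higher spike set, DMSO and 1.0 µM have 1 array each, so its calls assume that a lone array varies like the pair at 0.1 µM. Calls that were lost were EGFR at 1.0 µM, EREG and NRG1 at 0.1 µM and HBEGF between doses, under the settings named with them and in the lower spike set, and EREG also in the higher; the cause was not tested. EGFR between doses was called in the higher spike set alone (0.57, adjusted p = 0.00905), where 1.0 µM has 1 array. BTC was below the filter and had no test. Gene values that changed sign were all uncalled: with the mean of probe sets TGFA (-0.052 at 1.0 µM, -0.059 at 0.1 µM), EGFR at 0.1 µM (-0.013) and ERBB3 at 0.1 µM (0.018); with arrays left out ERBB3 at 1.0 µM (-0.19 to 0.34), at 0.1 µM (-0.77 to 0.056) and between doses (-0.0018 to 0.84), and TGFA between doses (-0.12 to 0.31); with the spike set as a block TGFA between doses (-0.0084); in the lower spike set ERBB3 at 0.1 µM (0.27); and in the higher spike set ERBB3 at 1.0 µM (-0.94) and TGFA between doses (-0.094). Among probe sets at 1.0 µM the sign changed for uncalled HBEGF 244857_at (-0.042 to 0.93 with arrays left out, -0.062 in the lower spike set), ERBB3 1563253_s_at (as its gene), ERBB3 226213_at (-0.039 to 0.34 with arrays left out), EGFR 211551_at (0.12) and 211607_x_at (-0.11) in the lower spike set, and NRG1 208241_at (-0.27) and ERBB2 210930_s_at (0.30) in the higher. Over all 3 comparisons of the 24 member probe sets, 49 of 1208 uncalled values changed sign.

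The dose comparison moved most. All genes called there numbered 114, and 67 with no filter, 173 with quantile normalization, 51 with median centring, 23 without the eBayes trend, 65 with only the 6 arrays, 256 with the spike set as a block, 1 with the lower spike set and 365 with the higher. Of its called genes 47.4% were higher at 1.0 µM, but 21.6% with median centring. All probe sets called there numbered 92, and 38 with no filter, 150 with the filter at the 60th percentile, 33 with median centring, 0 without the trend, 55 with only the 6 arrays, 237 with the spike block and 2 in the lower spike set. Member probe sets called between doses were 0 with median centring, without the trend and in either spike set; member genes were 0 with the mean of probe sets and in the lower spike set and 2 in the higher.

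At 0.1 µM the lower spike set called 314 genes, 396 probe sets, 1 member gene and 2 member probe sets, and the higher set 2 member probe sets. With arrays left out in turn, calls ranged from 842 to 2000 genes, 1249 to 3241 probe sets, 1 to 3 member genes and 2 to 4 member probe sets at 0.1 µM, and from 11 to 183 genes, 6 to 127 probe sets, 0 to 1 member genes and 0 to 1 member probe sets between doses. With the replicate block, 1747 probe sets were called at 0.1 µM (2703 without it), and between doses 23 genes, 11 probe sets and 0 member probe sets; EGFR 201983_s_at at 1.0 µM had an adjusted p of 0.0504, and no member gene gained or lost a call. The check of the replicate numbers could not exclude a pairing, so a call lost under the block cannot be set aside.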
